A study of Mus musculus with 22 samples.

Results

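Amino acid transporters are membrane proteins that carry amino acids into and out of cells, and 10 of their genes were followed in mouse liver: Slc7a11, Slc7a5, Slc3a2, Slc7a1, Slc7a2, Slc38a2, Slc38a3, Slc38a4, Slc1a4 and Slc6a9. Each was found by its symbol in the table of gene counts, where 10 of 55573 genes carried these symbols, 1 row for each. Liver mRNA was sequenced from 22 C57BL/6 mice, 1 library per mouse. The groups were 6 Cre mice on chow, 5 Cre mice on a methionine and choline deficient (MCD) diet, 5 FLCN KO mice on chow and 6 FLCN KO mice on MCD. FLCN KO mice were Flcn f/f with 1 copy of Albumin-Cre, and Cre mice carried the same transgene with 2 wild-type copies of Flcn, so no group was without the recombinase and the controls had no floxed allele. Diets began at 6 weeks of age and lasted 6 weeks. The chow was a purified low-fat diet from another supplier than MCD, so diet source and methionine and choline content cannot be told apart. The study set these groups against each other to ask how liver Flcn bears on the response to MCD.

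Most of these carriers move neutral or cationic amino acids across the plasma membrane. Slc3a2 encodes the heavy chain (4F2hc) that pairs with light chains such as Slc7a11 (xCT, which exchanges cystine for glutamate) and Slc7a5 (LAT1, for large neutral amino acids). A diet without methionine lowers the supply of sulfur amino acids, and cells short of amino acids make the transcription factor ATF4, which acts on amino acid response elements of many transporter and synthesis genes. Folliculin, the product of Flcn, sits on the lysosome, where it acts on the Rag GTPases that report amino acid supply to mTORC1 and set the location of TFEB and TFE3.

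Depth, as reads assigned to genes, was 13751347 at the lowest and 21144388 at the highest. Values below are CPM (counts scaled by TMM to a common library size). Comparisons are log2 fold changes from edgeR's quasi-likelihood test across the 14062 genes that averaged 10 counts or more. The SE was derived from that test, as the size of the log2 fold change divided by the square root of the F statistic. An adjusted p under 0.05 (Benjamini-Hochberg over all 14062 genes) is what "rose" or "fell" stands for. Flcn, the gene deleted, was used to check the labels. On chow its level was 26.1 to 40.2 CPM in Cre mice and 16.7 to 24.2 in FLCN KO mice, and these ranges did not overlap (log2 fold change −0.63, SE 0.173, adjusted p = 0.0249). On MCD the genotypes overlapped, at 18.2 to 39.9 and 17.6 to 32.6 CPM (−0.16, SE 0.17, adjusted p = 0.567). Flcn thus set the genotypes apart on chow, while on MCD it could not check the labels. Albumin-Cre acts in hepatocytes, the gene's counts include exons outside the deleted part, and other liver cells keep Flcn. Why the genotypes overlapped on MCD was not tested. The hepatocyte marker Alb averaged between 56800 and 101000 CPM in the 4 groups.

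Some libraries stood apart. The labels give no sex, but 12 libraries held Xist reads (5411 or more) and 10 held Y-linked reads (1906 or more), with both kinds in every group. Among the Xist libraries, Cre MCD 1 held 675 and FLCN KO Chow 2 held 451 Y-linked reads, and the next held 224. All 5 chow libraries with Y-linked reads, and no other library, had under 75% uniquely mapped reads, so on chow these features cannot be told apart. Cre MCD 3 held skeletal muscle RNA: 15 muscle genes summed to 3630 CPM there, against 179 or less elsewhere.

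**Figure D1:**
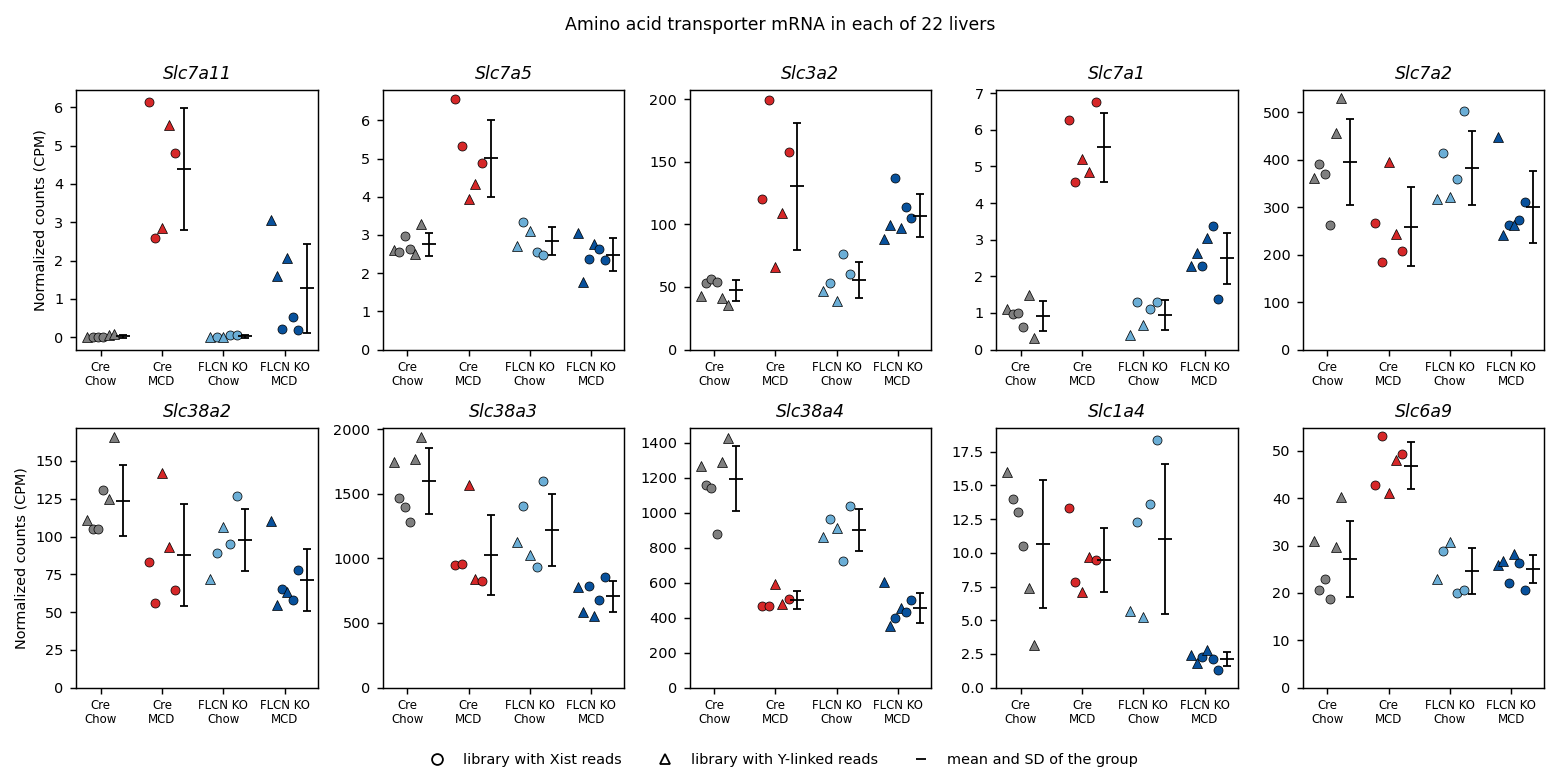
CPM of each transporter in each of the 22 livers, by genotype and diet, with circles for libraries with Xist reads, triangles for those with Y-linked reads and bars for the mean and SD of each group. Slc7a11 lies near 0 in every chow library, and Slc1a4 sits between 1.29 and 2.75 CPM in the 6 FLCN KO mice on MCD, below every other library.

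Slc7a11 (ENSMUSG00000027737, chr3:49892526-50443614, minus strand, GRCm38) was close to absent on chow, where no library held more than 1 count. On MCD the 5 Cre mice had 6.14, 2.59, 2.86, 5.53 and 4.82 CPM, and the FLCN KO mice 0.191 to 3.05 CPM with a median of 1.06. Measured against a floor of 3 counts per library in the chow groups, the mean on MCD lay at least 21.4-fold higher for Cre mice. In FLCN KO mice it lay at least 6.79-fold higher. The adjusted p of edgeR's test was 2.67e-07 in Cre mice and 6.82e-05 in FLCN KO mice, and belongs to its own fold changes, not to these bounds. Slc7a11 had 4 counts each in FLCN KO MCD 3 and FLCN KO MCD 6, close to that floor. Between genotypes on MCD it was lower in FLCN KO mice, with a log2 fold change of −1.77 (SE 0.489, adjusted p = 0.0156), although FLCN KO MCD 1 (3.05 CPM) lay above 2 Cre mice. The FLCN KO libraries with Y-linked reads had 3.05, 1.59 and 2.07 CPM and those with Xist reads 0.216, 0.537 and 0.191, while in Cre mice on MCD both kinds overlapped. Within the 10 libraries with Y-linked reads the genotype difference on MCD was −0.91 and did not pass (adjusted p = 0.256). Mean levels on MCD were 4.19 CPM in Cre and 2.24 in FLCN KO mice there, and 4.51 and 0.315 CPM in the libraries with Xist reads. When only the 2 groups compared were fitted, the adjusted p was 0.056.

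Slc7a5 (ENSMUSG00000040010, chr8:121881150-121907694, minus strand) rose with MCD in Cre mice and not in FLCN KO mice. On chow its lowest, median and highest values were 2.50, 2.61 and 3.29 CPM in Cre mice, and the FLCN KO mice had 2.72, 3.33, 3.09, 2.54 and 2.48 CPM. On MCD the Cre mice had 6.55, 5.34, 3.94, 4.32 and 4.87 CPM and the FLCN KO mice 1.76 to 3.05 CPM with a median of 2.51. Every Cre mouse on MCD was thus above every other library. With MCD it rose by 0.86 on the log2 scale in Cre mice (SE 0.153, adjusted p = 6.28e-05) and its log2 fold change in FLCN KO mice was −0.19 (SE 0.156, adjusted p = 0.346). The test of the difference between these responses gave −1.05 (SE 0.218, adjusted p = 0.00558), and on MCD the genotypes differed by −1.01 (SE 0.151, adjusted p = 0.000105). Within the 10 Y libraries the rise in Cre mice was 0.58 (adjusted p = 0.139) and the difference of responses −0.81 (adjusted p = 0.496), and neither passed. Counts of Slc7a5 were 33 to 159 per library.

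Slc3a2 (ENSMUSG00000010095, chr19:8706882-8723369, minus strand), the heavy chain, rose with MCD in both genotypes. Cre mice had 35.5 to 56.5 CPM on chow (median 47.9) and 120, 199, 65.7, 109 and 158 on MCD. FLCN KO mice had 46.8, 53.5, 39.0, 76.7 and 60.2 CPM on chow and 88.4 to 137 on MCD (median 102). No MCD library overlapped the chow libraries of its genotype, and the lowest Cre value on MCD was that of the library with muscle RNA. The log2 fold changes were 1.47 in Cre mice (SE 0.212, adjusted p = 5.88e-06) and 0.95 in FLCN KO mice (SE 0.215, adjusted p = 0.0011). The genotypes overlapped on MCD (−0.29, SE 0.21, adjusted p = 0.386), and the difference of responses was −0.52 (SE 0.298, adjusted p = 0.303). In FLCN KO mice the heavy chain thus passed the test for a rise with MCD and its light chain Slc7a5 did not, and their changes were not tested against each other.

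Slc7a1 (ENSMUSG00000041313, chr5:148327410-148399904, minus strand) and Slc7a2 (ENSMUSG00000031596, chr8:40862396-40922308, plus strand) encode cationic amino acid transporters, CAT1 and CAT2, which take up arginine, lysine and ornithine. Slc7a1 rose in both genotypes and Slc7a2, the CAT gene known for its liver form, fell in Cre mice. Cre mice had 0.321 to 1.49 CPM of Slc7a1 on chow (median 0.98) and 6.26, 4.57, 5.20, 4.85 and 6.76 on MCD. FLCN KO mice had 0.389, 1.31, 0.672, 1.10 and 1.29 CPM on chow and 1.38 to 3.37 on MCD (median 2.45), so all Cre mice on MCD exceeded all FLCN KO mice on MCD. For Slc7a1 the diet difference on the log2 scale came to 2.58 in Cre mice (SE 0.299, adjusted p = 3.01e-07) and 1.36 in FLCN KO mice (SE 0.305, adjusted p = 0.00102). On MCD the genotypes differed by −1.15 (SE 0.272, adjusted p = 0.00585), while the difference of responses, −1.22 (SE 0.424), did not pass (adjusted p = 0.0736). It passed in 2 of the 22 fits that left out 1 library (adjusted p = 0.0472 without Cre Chow 5 and 0.0328 without FLCN KO Chow 1). It also passed with DESeq2 (adjusted p = 0.0268) and without the 5 chow libraries of low uniquely mapped share (−1.67, adjusted p = 0.0176). Within the 12 Xist libraries it was −1.85 and passed (adjusted p = 0.0272), while within the 10 Y libraries it was −0.10 (adjusted p = 0.984). Counts of Slc7a1 on chow were 4 to 24 per library, which limits its chow level.

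Slc7a2 was far more abundant. Cre mice had 262 to 529 CPM on chow (median 380) and 266, 184, 395, 244 and 207 on MCD, and FLCN KO mice had 317, 414, 322, 359 and 503 on chow and 242 to 448 on MCD (median 268). The diets overlapped in both genotypes. Its response to MCD was a log2 fold change of −0.61 in Cre mice (SE 0.202, adjusted p = 0.0136) and −0.35 in FLCN KO mice (SE 0.199, adjusted p = 0.157). On MCD the genotypes differed by 0.21 (SE 0.2, adjusted p = 0.528), and the difference of responses was 0.26 (SE 0.283, adjusted p = 0.633). Without the 5 chow libraries of low uniquely mapped share the fall in Cre mice did not pass (−0.40, adjusted p = 0.16). The change in FLCN KO mice passed without FLCN KO MCD 1, its highest library on MCD (−0.50, adjusted p = 0.0378), and within the 12 Xist libraries (−0.59, adjusted p = 0.0189).

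The 3 Slc38 genes encode sodium-coupled neutral amino acid transporters (SNAT2, SNAT3 and SNAT4). SNAT3 is a main carrier of glutamine in hepatocytes, SNAT4 takes up small neutral amino acids in liver, and SNAT2 is known as a carrier whose synthesis rises when amino acids are scarce. Slc38a3 and Slc38a4 fell with MCD in both genotypes. Slc38a2 did not pass the test in either, although in both genotypes this turned on single libraries.

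Slc38a4 (ENSMUSG00000022464, chr15:96994820-97055956, minus strand) had the clearest fall. Cre mice had 880 to 1430 CPM on chow (median 1210) and 464, 467, 593, 476 and 505 on MCD, and FLCN KO mice had 863, 964, 913, 726 and 1040 on chow and 351 to 601 on MCD (median 442). Diets did not overlap in either genotype. The log2 fold changes were −1.25 in Cre mice (SE 0.137, adjusted p = 1.38e-07) and −0.98 in FLCN KO mice (SE 0.133, adjusted p = 4.27e-06). Between genotypes it was −0.14 on MCD (SE 0.133, adjusted p = 0.539) and −0.40 on chow (SE 0.134, adjusted p = 0.0633), and the difference of responses was 0.27 (SE 0.188, adjusted p = 0.411).

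Slc38a3 (ENSMUSG00000010064, chr9:107650634-107669530, minus strand) had 1280 to 1940 CPM in Cre mice on chow (median 1610) and 953, 955, 1570, 840 and 822 on MCD. In FLCN KO mice it had 1130, 1410, 1030, 932 and 1600 CPM on chow and 554 to 859 on MCD (median 728). The value of 1570 came from Cre MCD 3, the library with muscle RNA, and it alone overlapped the Cre chow range. The log2 fold changes with MCD were −0.64 in Cre mice (SE 0.177, adjusted p = 0.00395) and −0.78 in FLCN KO mice (SE 0.175, adjusted p = 0.000947), with a difference of −0.14 between them (SE 0.248, adjusted p = 0.777). On MCD FLCN KO mice were lower by −0.54 (SE 0.175, adjusted p = 0.0371), and without Cre MCD 3 this was −0.34 with an adjusted p of 0.142. The call was lost in 5 of the 22 fits that left out 1 library and in 2 of 9 planned settings (adjusted p up to 0.0567). Within the 12 Xist libraries the difference was −0.23 (adjusted p = 0.417), with means on MCD of 910 CPM in Cre and 774 in FLCN KO mice. In the Y libraries, Cre MCD 3 among them, these means were 1210 and 640 CPM, and the difference did not pass there either. On chow the genotype difference was −0.40 (SE 0.176, adjusted p = 0.173). Without the 5 chow libraries of low uniquely mapped share the fall in Cre mice was −0.43 (adjusted p = 0.0946).

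Slc38a2 (ENSMUSG00000022462, chr15:96687392-96699730, minus strand) had 105 to 166 CPM in Cre mice on chow (median 118) and 83.0, 55.7, 142, 93.1 and 64.6 on MCD. In FLCN KO mice it had 71.7, 88.9, 106, 94.8 and 127 CPM on chow and 54.5 to 110 on MCD (median 64.3). The highest values on MCD came from Cre MCD 3 and FLCN KO MCD 1, and diets overlapped in both genotypes. The log2 fold changes were −0.50 in Cre mice (SE 0.215, adjusted p = 0.0527) and −0.45 in FLCN KO mice (SE 0.213, adjusted p = 0.0888). Without Cre MCD 3 the fall in Cre mice was −0.74 and passed (adjusted p = 0.00321), as it did in 6 of the 22 fits that left out 1 library and in 3 of 9 planned settings, DESeq2 among them (adjusted p = 0.0454). For FLCN KO mice it passed without FLCN KO MCD 1 (−0.62, adjusted p = 0.018), without Cre MCD 3 (−0.45, adjusted p = 0.0458) and within the 12 Xist libraries (−0.63, adjusted p = 0.0118). On MCD the genotypes differed by −0.30 (SE 0.213, adjusted p = 0.378), and the difference of responses was 0.04 (SE 0.302, adjusted p = 0.947).

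Slc1a4 (ENSMUSG00000020142, chr11:20302180-20332713, minus strand) encodes ASCT1, an exchanger of alanine, serine and cysteine. Of the 10 transporters it was the one that fell with MCD in FLCN KO mice and not in Cre mice. Cre mice had 3.13 to 16.0 CPM on chow (median 11.7) and 13.3, 7.80, 7.12, 9.70 and 9.48 on MCD. FLCN KO mice had 5.68, 12.3, 5.24, 13.6 and 18.4 CPM on chow and 1.29 to 2.75 on MCD (median 2.19), below every library of the other groups. As log2 fold changes these were −0.17 for Cre mice (SE 0.331, adjusted p = 0.675) and −2.39 in FLCN KO mice (SE 0.353, adjusted p = 1.3e-05). The difference of responses was −2.22 (SE 0.48, adjusted p = 0.00735), and on MCD the genotypes differed by −2.16 (SE 0.351, adjusted p = 0.000247). On chow FLCN KO mice with Xist reads had 12.3 to 18.4 CPM and those with Y-linked reads 5.24 and 5.68. Mean levels of FLCN KO mice were 14.8 CPM on chow and 1.89 on MCD in the Xist libraries. In the Y libraries they were 5.46 and 2.34 CPM. The fall in FLCN KO mice was −1.24 within the Y libraries, which did not pass (adjusted p = 0.121). There the difference of responses was −1.19 (adjusted p = 0.612) and the genotype difference on MCD −1.85 (adjusted p = 0.0619).

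Slc6a9 (ENSMUSG00000028542, chr4:117834506-117875198, plus strand) encodes GLYT1, a sodium- and chloride-dependent glycine transporter. It rose with MCD in Cre mice and not in FLCN KO mice. Cre mice had 18.8 to 40.3 CPM on chow (median 26.3) and 42.7, 53.1, 41.2, 48.1 and 49.4 on MCD, with no overlap. FLCN KO mice had 23.0, 28.8, 30.8, 19.9 and 20.6 CPM on chow and 20.6 to 28.3 on MCD (median 26.1). As log2 fold changes these were 0.79 for Cre mice (SE 0.161, adjusted p = 0.000292) and 0.02 in FLCN KO mice (SE 0.163, adjusted p = 0.919). On MCD the genotypes differed by −0.91 (SE 0.161, adjusted p = 0.000586) and did not overlap. The difference of responses was −0.76 (SE 0.229, adjusted p = 0.04), a call that held in 10 of the 22 fits that left out 1 library. In Cre mice on chow the libraries with Y-linked reads (29.7 to 40.3 CPM) lay above those with Xist reads (18.8 to 22.9), and the rise in Cre mice was 0.43 within the Y libraries, which did not pass (adjusted p = 0.0854), and 1.22 within the Xist libraries. The difference of responses within the Y libraries was −0.44 (adjusted p = 0.575). Slc6a9 shares 1429 exon bases with the antisense gene Ccdc24, whose mean count was 1.64, and whether strand was used in counting is not given in the sources used here.

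**Figure D2:**
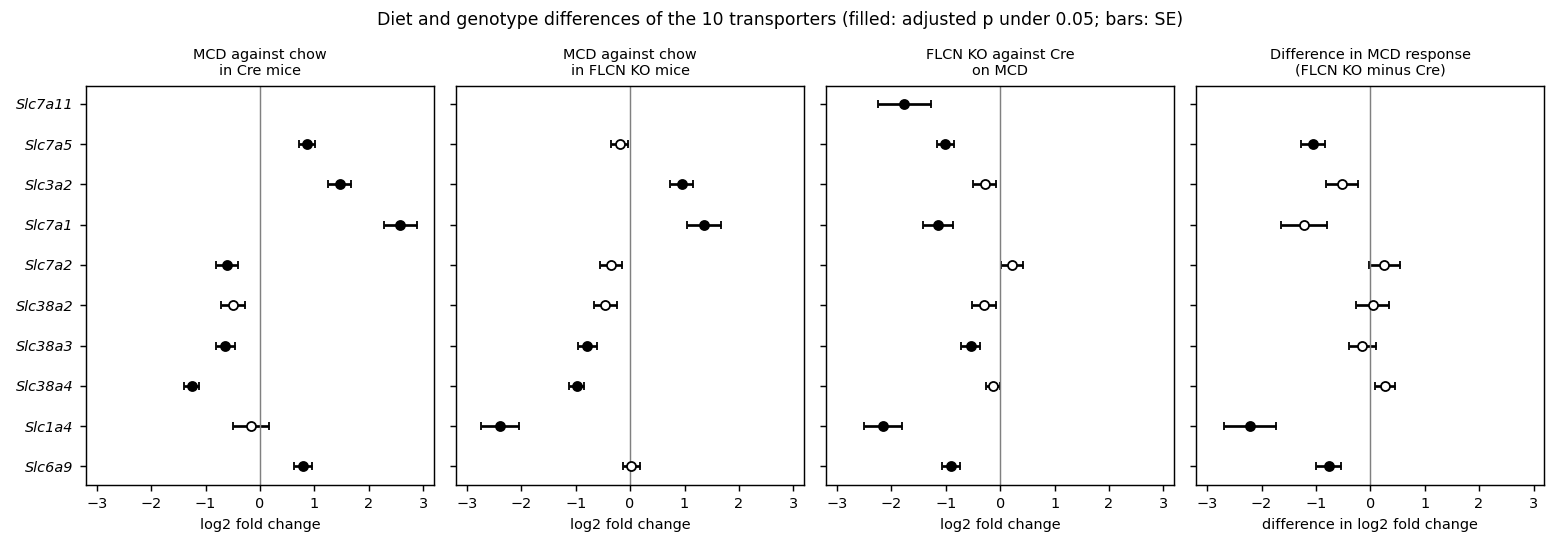
Log2 fold change (point) and SE (bar) of each transporter for MCD against chow in each genotype, for FLCN KO against Cre mice on MCD, and for the difference in MCD response, with filled points where the adjusted p is under 0.05. Slc7a11 is drawn only on MCD, since its chow level is at or under 1 count, and the filled points of the genotype comparison on MCD all lie left of 0.

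Counted over the 10 genes, MCD in Cre mice brought 5 higher (background 29.3% of all genes tested) and 3 lower (28.2%), with a median log2 fold change of 0.31 against 0.01 over all genes. In FLCN KO mice 3 were higher (22.5%) and 3 lower (22.5%), with a median of −0.27 against 0.00. So many genes changed with diet that the 3 lower in Cre mice and the 3 each way in FLCN KO mice are near the background. The 5 higher in Cre mice lie above it, a gap that was not tested. Between genotypes on chow 0 were higher (5.52%) and 0 lower (3.1%) by edgeR, while 2 had an unadjusted p under 0.05 and DESeq2 called 1. Without Slc7a11 the log2 differences on chow ranged from −0.40 to 0.23. On MCD 0 were higher in FLCN KO mice (8.06%) and 6 lower (8.53%), namely Slc7a11, Slc7a5, Slc7a1, Slc38a3, Slc1a4 and Slc6a9, with a median of −0.72 against −0.01 over all genes. In 4 of these (Slc7a5, Slc7a1, Slc1a4 and Slc6a9) the genotypes did not overlap, as was so, with FLCN KO mice lower, for 3.53% of all genes tested. Within the 10 Y libraries, 2 or 3 per group, all 6 remained lower in FLCN KO mice and 1, Slc6a9, passed the test. For the difference of responses 0 were higher (3.29%) and 3 lower (5.54%). The comparisons share groups, so their counts are not independent of each other.

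The levels of the 10 genes spanned several orders of magnitude per length of exon. In Cre mice on chow Slc38a3 had 304 ± 48.5 CPM per kb (SD, n = 6) and Slc38a4 280 ± 43.7, with ranges that overlapped. Slc7a2 followed at 43.2 ± 9.91, then Slc38a2 at 14 ± 2.64 and Slc3a2 at 13.4 ± 2.42, again with overlapping ranges for the last pair. The genes were read in the same libraries, and the order within these pairs was not tested. Below these came Slc6a9 (5.30 ± 1.57), Slc1a4 (2.72 ± 1.21), Slc7a5 (0.743 ± 0.0836), Slc7a1 (0.0793 ± 0.0351) and Slc7a11 (0.00177 ± 0.00276). In Cre mice on MCD Slc3a2, at 36.9 ± 14.3 CPM per kb (SD, n = 5), stood beside Slc7a2 at 28.4 ± 9, and in FLCN KO mice on MCD Slc1a4 (0.538 ± 0.128, n = 6) stood beside Slc7a5 (0.671 ± 0.119). Averaged over all libraries, Slc38a3 and Slc38a4 exceeded all but 1.58% and 1.94% of the genes tested per length, and 98.9% of them lay above Slc7a11. These ranks pool groups of different level, such as Slc7a11 at 0.00177 CPM per kb in Cre mice on chow and 0.315 on MCD.

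**Figure D3:**
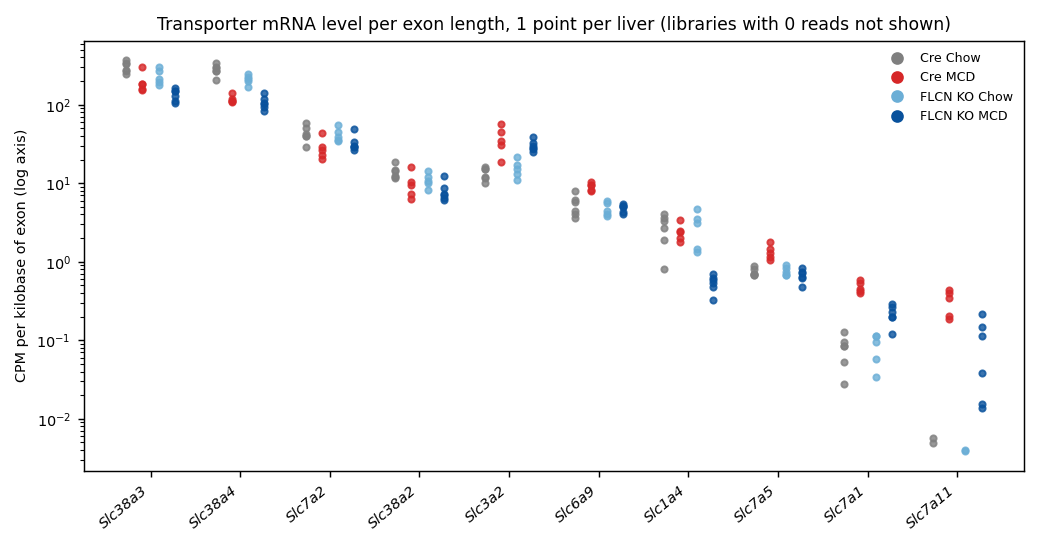
Level of each transporter per kilobase of exon (CPM per kb, log axis), 1 point per liver, coloured by group and ordered by the mean in Cre mice on chow. Slc38a3 and Slc38a4 lie highest in all groups, and libraries with 0 reads of Slc7a11 are not drawn.

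Promoter sequence was read from RefSeq (GRCm38.p6) as 250 bases before to 50 after each start, and 7 of the 10 genes had an entry, with 12 promoters. Slc7a5, Slc7a2 and Slc38a3 had none. Shown are Slc7a11 and Slc1a4, the members whose promoters held the letters TGATGNAAN of the amino acid response element on either strand, in capitals and in the direction of the gene (chr3:50443564-50443863 and chr11:20332664-20332963, both minus strand):
Slc7a11: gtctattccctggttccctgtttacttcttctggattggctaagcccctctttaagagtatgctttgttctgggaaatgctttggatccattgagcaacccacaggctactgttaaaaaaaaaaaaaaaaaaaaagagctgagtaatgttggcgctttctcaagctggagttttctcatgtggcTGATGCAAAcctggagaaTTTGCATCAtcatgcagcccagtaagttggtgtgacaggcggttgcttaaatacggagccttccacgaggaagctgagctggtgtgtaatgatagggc
Slc1a4: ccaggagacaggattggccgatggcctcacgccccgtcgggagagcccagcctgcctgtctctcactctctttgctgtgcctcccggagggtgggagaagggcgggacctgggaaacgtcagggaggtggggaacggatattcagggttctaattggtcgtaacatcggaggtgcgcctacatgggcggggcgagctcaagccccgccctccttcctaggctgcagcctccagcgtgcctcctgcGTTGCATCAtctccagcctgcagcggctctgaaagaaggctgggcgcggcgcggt

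The Slc7a11 promoter held 2 matches that face each other, starting 66 and 48 bases before the start, and the Slc1a4 promoter held 1 on the opposite strand, starting 5 bases before it. These letters were held by 3.95% of all 32851 promoters. The antioxidant response element, TGACNNNGC on either strand, was matched in promoters of Slc6a9, Slc7a1 and Slc38a2 (12.4% of all promoters), and the E-box CACGTG in 0 of the 7 (7.15% of all). No promoter of these genes held more than 1 of the 3 motifs. Of the pair that held the amino acid response element, Slc7a11 was higher on MCD in both genotypes and Slc1a4 fell with MCD in FLCN KO mice, while both were lower in FLCN KO than in Cre mice on MCD. Such matches are a description of letters, not of bound sites.

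For 9 of the transporters, genes with the most similar log2 CPM over the 22 libraries, which share diet, genotype and depth, were taken by Pearson's r as a description. For Slc3a2 they were Htatip2 (0.965), Smox (0.952) and Itga6 (0.947). For Slc7a11 they were Gm3776 (0.965), Sprr1a (0.965) and Lgals3 (0.963), and for Slc7a1 Ralgds (0.937), Plpp1 (0.922) and Atf3 (0.921). Slc6a9 was nearest to Sh3bp2 (0.911), Slc38a3 to Gm27463 (0.942), Slc7a2 to Upp2 (0.9), Slc38a2 to Map2k6 (0.886), Slc1a4 to Ptpn6 (0.876) and Slc7a5 to Slc13a5 (0.848). Within the 10 genes, Slc38a3 and Slc38a4 had an r of 0.88, Slc7a11 and Slc7a1 0.884, and Slc7a5 and Slc6a9 0.806, while Slc3a2 and Slc38a4 had −0.881.

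Of 36 other amino acid transporters of the plasma membrane and secretory pathway, 16 were abundant enough to test. With MCD 8 rose and 6 fell in Cre mice (background 29.3% and 28.2% of all genes), and 4 rose and 5 fell in FLCN KO mice, near the background of 22.5% in each direction. The median log2 fold changes were 0.30 and −0.08, against 0.01 and 0.00 over all genes. Slc1a5, the ASCT2 glutamine exchanger, rose in both, from 2.09 ± 0.447 to 9.15 ± 1.65 CPM in Cre mice (log2 fold change 2.13, SE 0.202, adjusted p = 1.95e-08) and from 2.87 ± 0.997 to 7.43 ± 1.28 in FLCN KO mice (1.36, SE 0.201, adjusted p = 1.31e-05). In Cre mice the light chain Slc7a6 (y+LAT2) rose by 1.80 (SE 0.293, adjusted p = 2.43e-05) and Slc43a2 (LAT4) by 0.92 (SE 0.164, adjusted p = 6.39e-05). Slc3a1, the heavy chain rBAT, fell in both genotypes, by 1.70 in Cre mice (SE 0.372, adjusted p = 0.000545) and 1.81 in FLCN KO mice (SE 0.364, adjusted p = 0.000366). Slc16a10, an aromatic amino acid carrier, also fell in both, by 0.67 (SE 0.166, adjusted p = 0.00163) and 1.07 (SE 0.165, adjusted p = 2.04e-05).

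On MCD 6 of these 16 were lower in FLCN KO mice (background 8.53%) and 1 higher (8.06%), with a median of −0.43 against −0.01 over all genes, and on chow 1 was higher (5.52%) and 0 lower (3.1%). The one higher on chow was Slc38a1 (SNAT1), with a log2 difference of 0.82 (SE 0.243, adjusted p = 0.0385). The taurine transporter Slc6a6 was the one higher on MCD, by 0.56 (SE 0.128, adjusted p = 0.00463), and Slc7a7 (y+LAT1) was among the lower, at −0.55 (SE 0.142, adjusted p = 0.00948). For the difference of responses 1 was higher (background 3.29%) and 4 lower (5.54%). Slc38a1 had −1.40 (SE 0.333, adjusted p = 0.0127), Slc7a8 (LAT2) −0.85 (SE 0.214, adjusted p = 0.0175), and Slc7a7 was again among the lower (adjusted p = 0.00489). Slc7a7 is also expressed by macrophages, whose markers are given below, and the part of these cells in its values was not tested.

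Carriers of organelle membranes were counted apart. Of 10 symbols for lysosomal transporters 8 genes were tested, and 3 were higher in FLCN KO mice on chow (background 5.52%) with 0 lower, while on MCD 3 were higher (8.06%) and 1 lower (8.53%). Ctns, which exports cystine from lysosomes, was higher in FLCN KO mice by 0.57 on chow (SE 0.098, adjusted p = 0.000579) and 0.87 on MCD (SE 0.0983, adjusted p = 3.8e-06). Pqlc2, which exports cationic amino acids, was higher by 0.75 on chow (SE 0.177, adjusted p = 0.00889) and 0.51 on MCD (SE 0.173, adjusted p = 0.0486). Both exporters were higher in FLCN KO mice on either diet, where the 6 calls among the first 10 transporters on MCD were all lower. With MCD 4 lysosomal genes rose and 1 fell in Cre mice (background 29.3% and 28.2%), 3 rose and 1 fell in FLCN KO mice (22.5% each way), and for the difference of responses 0 were higher and 1 lower (3.29% and 5.54%).

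Of 13 mitochondrial carriers 11 were tested, of which MCD raised 2 and lowered 6 in Cre mice, while 2 rose and 5 fell in FLCN KO mice. Over all genes MCD raised 29.3% and lowered 28.2% in Cre mice and 22.5% each way in FLCN KO mice, and the medians of the carriers were −0.36 and −0.21 against 0.01 and 0.00. Slc25a45 fell by 1.60 in Cre mice (SE 0.16, adjusted p = 3.98e-08) and by 2.06 in FLCN KO mice (SE 0.16, adjusted p = 2.28e-09), and Slc25a15, the ornithine carrier of the urea cycle, fell by 0.71 and 0.78 (SE 0.117 and 0.115, adjusted p = 2.61e-05 and 1.32e-05). FLCN KO mice had 0 higher and 1 lower on chow (background 5.52% and 3.1%) and 0 higher and 3 lower on MCD (8.06% and 8.53%), and for the difference of responses 1 was higher and 1 lower (3.29% and 5.54%).

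**Figure D4:**
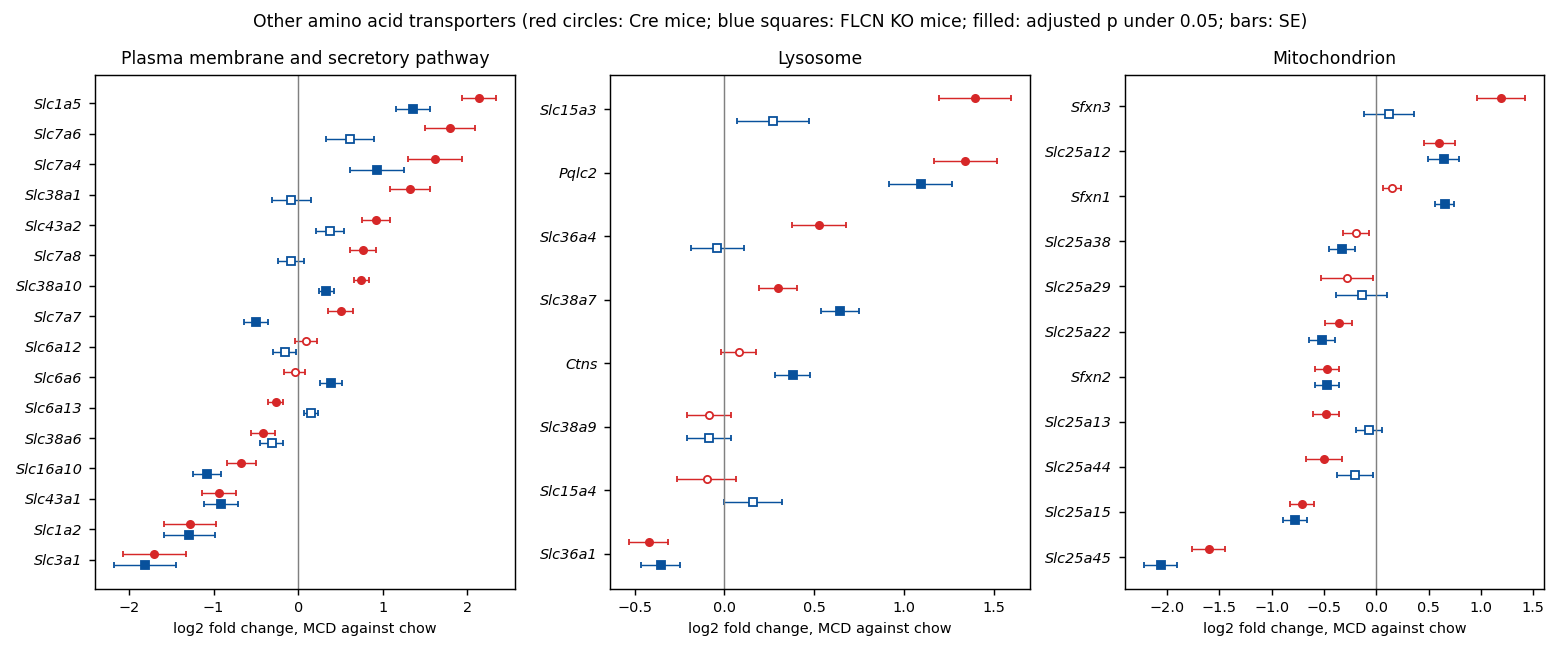
Log2 fold change with MCD (point) and SE (bar) of the other amino acid transporters tested, by location in the cell, in Cre mice (red circles) and FLCN KO mice (blue squares), filled where the adjusted p is under 0.05. Slc1a5 lies highest in the plasma membrane panel in both genotypes, and Slc25a45 lowest in the mitochondrial panel.

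Of 35 tested genes of the ATF4 pathway, the amino acid response, 25 rose with MCD in Cre mice and 2 fell (background 29.3% and 28.2%). In FLCN KO mice 18 rose, 2 fell (22.5% each way) and the rest did not pass. The medians were 0.92 and 0.81, against 0.01 and 0.00 over all genes. Psat1, of serine synthesis, rose by 5.93 in Cre mice (SE 0.43, adjusted p = 4.29e-10) and 4.52 in FLCN KO mice (SE 0.416, adjusted p = 2.91e-08). On MCD 2 were higher and 6 lower in FLCN KO mice (background 8.06% and 8.53%), among them Atf3 (−1.58, SE 0.235, adjusted p = 9.55e-05) and Pycr1, of proline synthesis (−1.46, SE 0.247, adjusted p = 0.000376). On chow 4 were higher in FLCN KO mice and 0 lower (background 5.52% and 3.1%), with Nupr1 at 3.35 (SE 0.432, adjusted p = 2.23e-05). For the difference of responses 0 were higher and 5 lower (3.29% and 5.54%).

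Targets of NRF2, which acts on antioxidant response elements, numbered 27, all tested. With MCD 13 rose and 4 fell in Cre mice (background 29.3% and 28.2%), and 6 rose and 4 fell in FLCN KO mice, where the 6 are near the background of 22.5% and the 4 below it. The medians were 0.23 and 0.01. On MCD 1 was higher and 11 lower in FLCN KO mice (background 8.06% and 8.53%), with Srxn1 (sulfiredoxin) at −0.95 (SE 0.172, adjusted p = 0.000751) and Gstm1 (a glutathione transferase) at −0.97 (SE 0.181, adjusted p = 0.000883). On chow 1 was higher, Hmox1 (heme oxygenase) at 0.67 (SE 0.125, adjusted p = 0.00134), and 0 lower (background 5.52% and 3.1%), and 0 were higher and 4 lower for the difference of responses (3.29% and 5.54%).

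Of 15 amino acid sensing genes tested, MCD raised 5 and lowered 7 in Cre mice, while 3 rose and 6 fell in FLCN KO mice. The background was 29.3% and 28.2% in Cre mice and 22.5% each way in FLCN KO mice, so the numbers raised are near it, and the medians were −0.22 and −0.35. Rragd, the RagD GTPase that folliculin acts on, was higher in FLCN KO mice by 3.91 on chow (SE 0.252, adjusted p = 7.77e-10) and 3.18 on MCD (SE 0.242, adjusted p = 2.46e-08), and all FLCN KO mice (17.2 to 74.3 CPM) exceeded all Cre mice (1.5 to 9.89). Rragc was higher by 0.38 (SE 0.0761, adjusted p = 0.00274) and 0.60 (SE 0.0764, adjusted p = 1.58e-05). On each diet 2 genes of this list were higher and 1 lower (background 5.52% and 3.1% on chow, 8.06% and 8.53% on MCD), and 1 was higher and 1 lower for the difference of responses (3.29% and 5.54%).

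Bulk liver holds several cell types, and fewer cells of a type cannot be told apart from less RNA per cell. The marker counts that follow stand against 29.3% of all genes higher and 28.2% lower with MCD in Cre mice, 22.5% each way in FLCN KO mice, and 8.06% higher and 8.53% lower in FLCN KO mice on MCD. Macrophage markers (12 genes, the most abundant being Cd5l) rose in 7 and fell in 1 with MCD in Cre mice, rose in 2 and fell in 3 in FLCN KO mice, and on MCD 5 were lower in FLCN KO mice. Their summed level was 511 to 878 CPM in Cre and 328 to 779 in FLCN KO mice on MCD, against 379 to 615 and 466 to 748 on chow. Of 10 stellate cell markers (most abundant Reln) 8 rose in Cre mice on MCD and 8 were lower in FLCN KO mice on MCD. Their sums on MCD were 190 to 543 CPM in Cre mice and 133 to 212 in FLCN KO mice. The 543 CPM came from Cre MCD 3, the library with muscle RNA, and the other Cre mice on MCD had 337 or less. The stellate calls were not tested without that library. All 6 proliferation markers (most abundant Mki67) rose in Cre mice, from sums of 5.14 to 14.6 to sums of 15.7 to 107 CPM, and on MCD 1 was lower in FLCN KO mice. All 15 muscle genes (most abundant Myh1) were called higher in Cre mice on MCD and 14 lower in FLCN KO mice on MCD. Of 8 hepatocyte markers 6 fell with MCD in each genotype, and on MCD 2 were lower in FLCN KO mice, Tat (−0.90, SE 0.287, adjusted p = 0.0358) and Cyp2e1 (−0.64, SE 0.168, adjusted p = 0.0117), with 0 higher. None of these 5 lists had a gene at 0 in all libraries of any group. The part of these cells in the transporter values was not tested. The summed muscle genes were 3630 CPM in Cre MCD 3, 179 in Cre MCD 4 and 89 in FLCN KO MCD 3, and without Cre MCD 3 Slc38a3 alone of the 6 calls between genotypes on MCD was lost.

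Among the remaining marker lists in Cre mice on MCD, 5 of 5 neutrophil genes tested rose, 3 of 6 bile duct genes and 3 of 5 erythroid genes rose, 1 of 8 endothelial genes rose and 5 fell, and 0 of 6 lymphocyte genes passed. Over all genes 29.3% rose and 28.2% fell in Cre mice. A single adipocyte gene, Cidec, which fatty hepatocytes also express, and 1 pancreatic acinar gene were abundant enough to test, and both rose in Cre mice, Cidec in FLCN KO mice as well. In FLCN KO mice on MCD 4 neutrophil genes rose, 0 bile duct genes passed, and 1 erythroid, 6 endothelial and 3 lymphocyte genes fell. The background there was 22.5% each way, and the 1 erythroid gene of 5 is near it. The summed acinar markers reached 12.4 CPM in Cre MCD 5 and 34.7 in FLCN KO MCD 3.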

How the data were processed

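Whole-liver mRNA of 22 mice was sequenced in 4 groups named by the sample labels. The authors trimmed single-end reads (Trimmomatic), aligned them to GRCm38 (STAR) and deposited raw HTSeq counts, whole numbers of reads per gene. UMI adapters were used, but collapsing on them, the annotation release and the strand setting are not given in the sources used here, so counts were treated as reads, and counting error alone understates the noise. Each column carried a sample label.

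Genes averaging 10 counts or more were scaled by TMM and tested in 1 fit of the 4 groups with edgeR 4.0.16 (R 4.3.3), two-sided quasi-likelihood, Benjamini-Hochberg over 14062 genes. Uniquely mapped shares came from the study's library statistics. Exon lengths and positions were from GENCODE M21. No 2 libraries within a group were identical. The replicate numbers in the labels mark different mice and were not treated as pairs in the main fit.

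The members and gene lists were chosen with earlier results of these data known. All 10 members are named, and from each other list at most the 4 genes with the smallest adjusted p per comparison. Alternatives were RLE, DESeq2 1.42.0, limma-voom (limma 3.58.1), other filters, fits of only the groups compared, a covariate for sex inferred from counts, a replicate block, and fits without given libraries. The genes most similar to Slc38a4 are not reported here. The study's histology, immunoblots and other diets were not analysed here.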

Additional observations from a re-analysis of the deposited data

Results flagged for a closer look

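Over 38 combinations of transporter and group, 2 values stood apart from the rest of their group, and chance alone marks about 1 group in 20. Slc7a2 in FLCN KO MCD 1 was 448 CPM, where the other 5 mice of the group lay at 310 or below. Slc38a3 in Cre MCD 3 was 1570 CPM, where the other 4 lay at 955 or below, and the same library held the skeletal muscle reads.

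The response to MCD differed between genotypes, by the interaction term of edgeR with adjustment over all genes, for Slc7a5 (−1.05 on the log2 scale, adjusted p = 0.00558), Slc1a4 (−2.22, adjusted p = 0.00735) and Slc6a9 (−0.76, adjusted p = 0.04).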

How the results depend on the processing

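Of 23 calls on single transporters, 21 held in all 22 fits that left out 1 library, and the exceptions were Slc38a3 between genotypes on MCD and Slc6a9 for the difference of responses. In 9 planned and 3 added settings no called value changed sign. The added settings, chosen after seeing the data, were the 12 Xist libraries only, the 10 Y libraries only, and a fit without Cre MCD 1, Cre MCD 3 and FLCN KO Chow 2. Scaling by RLE moved no count by over 1.5 times. Outside the leave-one-out fits there were 22 losses, where a call counts once for each setting that lost it. Of these, 13 were in the 10 Y libraries, which leave 2 or 3 per group.

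The counts of calls that moved were these. With 10 counts required in every library, which drops low genes, MCD against chow had 3 higher in Cre mice and 1 in FLCN KO mice. Within the 10 Y libraries Cre mice had 3 higher and 1 lower with MCD, 1 transporter was lower in FLCN KO mice on MCD and 0 were lower for the difference of responses. Without the 5 chow libraries of low uniquely mapped share 1 fell in Cre mice, and within the 12 Xist libraries 5 fell in FLCN KO mice. DESeq2 called 1 lower in FLCN KO mice on chow. With 1 library left out the number lower on chow ranged from 0 to 1 (1 without Cre Chow 4 or FLCN KO MCD 1), and the number that fell in FLCN KO mice with MCD from 3 to 5 (5 without FLCN KO MCD 1). The cause was not tested.

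Values that changed sign had not passed the test. The genotype differences on chow did so for Slc7a11, Slc7a5, Slc7a1, Slc7a2, Slc1a4 and Slc6a9 in some settings, and the difference of responses did so for Slc7a11 (up to 2.09). For Slc6a9 in FLCN KO mice with MCD they were −0.0063 with sex as a covariate, −0.004 in the Xist libraries, −0.0146 in the Y libraries and −0.0452 to 0.1157 with 1 library left out. Between genotypes on MCD they were 0.1156 for Slc3a2 and −0.0191 for Slc7a2 in the Y libraries, and 0.0032 for Slc38a2 without the 3 named libraries. For the difference of responses they were −0.1051 for Slc7a2 and −0.1614 for Slc38a2 without the 5 chow libraries, −0.0789 for Slc38a2 in the Y libraries, and 0.1473 for Slc38a3 without the 3 named libraries. With 1 library left out that difference ranged from −0.1205 to 0.286 for Slc38a2 and from −0.2452 to 0.0588 for Slc38a3.

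With the replicate number as a block, 1 call was lost, the difference of responses of Slc6a9 (−0.85, adjusted p = 0.0686), and sign changes were −0.0063 for Slc6a9 with MCD in FLCN KO mice and −0.0555 for Slc38a2 in the difference of responses. Deviations from the group means correlated between same-numbered mice, on average, at −0.0842 and −0.0112 between diets and 0.0614 and 0.129 between genotypes. By pair these ran from −0.136 to −0.0146 between diets in Cre mice and from −0.187 to 0.21 in FLCN KO mice. Between genotypes they ran from −0.551 to 0.47 on chow and from 0.0621 to 0.262 on MCD. At most 2 of 5 mice matched best with their own number. So few pairs cannot exclude pairing, and the numbers were not taken to pair the mice.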
